A study of Rattus norvegicus with 17 samples.

Results

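The regions described here are places in the rat genome where the transcription factor Olig2 was called at all 3 stages of oligodendrocyte development and the chromatin remodeller Brg1 at none. They were chosen by the Olig2 and Brg1 peak positions: by merging the Olig2 peaks of the 3 stages, joining peaks that overlapped or touched, and keeping each merged region that held an Olig2 peak of every stage and shared no base with a Brg1 peak of any stage. This rule gave 1109 of 31655 Olig2 regions (3.50%), covering 1583 kb in all. They are called Brg1-free all-stage regions below.

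Olig2 is a basic helix-loop-helix transcription factor that marks the oligodendrocyte lineage, from precursors to the cells that make myelin, and is needed for that lineage to form. Brg1, encoded by Smarca4, is an ATPase of the BAF complex, which moves or evicts nucleosomes and is known to work at enhancers together with lineage factors. H3K27Ac is the acetylation mark of active enhancers and promoters, H3K4me3 a mark of promoters, H3K9me3 a mark of silenced chromatin, and RNA polymerase II (RNAPII) marks transcription.

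The data were 17 lists of ChIP-seq peaks, 1 library for each target and stage. All came from wild-type Sprague-Dawley rats, with cells isolated from the cortex of pups at postnatal day 2 by differential detachment. Precursors of oligodendrocytes (OPC) were labelled as treated with mitogens, which the growth protocol gives as PDGF-AA at 10 ng/ml and bFGF at 20 ng/ml in Sato medium. The immature (iOL) and the mature cells (mOL) were both labelled as treated with T3, given as thyroid hormone at 15 nM with ciliary neurotrophic factor at 10 ng/ml. The growth protocol names the isolated cells iOL throughout. The targets were Olig2, Brg1, the 3 histone marks and RNAPII, the last mapped in OPC and iOL. For the times in culture and any pooling of animals, nothing is stated in the labels. Peak lists give no level of cell marker genes, so the labelled cell types were not checked.

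With 1 library for each target and stage, differences between stages rest on single libraries, have no check by replicates and carry no p-value. Shares of regions carry exact Clopper-Pearson 95% intervals. Differences between sets of regions carry Newcombe 95% intervals. Both cover the counting of regions in these lists only, regions are not replicates of a culture, and the intervals were not adjusted for the number of differences computed (46, over 23 features and 2 comparison sets). Only peak positions (rat build rn4) were in the lists, and library depth is unknown. The OPC, iOL and mOL lists of Olig2 held 21901, 25787 and 2759 peaks, and those of Brg1 452, 5465 and 4378. A region free of Brg1 is therefore a region with no called peak. Brg1 present below the level of a call cannot be told apart from its absence, least of all in OPC.

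The short mOL list sets the number of all-stage regions. Of the 2759 mOL Olig2 peaks, 1109 (40.2%) lay in Brg1-free all-stage regions and 1311 (47.5%) in all-stage regions that held Brg1. All-stage regions numbered 2417, of which 1109 (45.9%, 43.9 to 47.9) were Brg1-free. Regions with Olig2 in OPC and iOL but not mOL were Brg1-free in 9959 of 13038 cases (76.4%, 75.6 to 77.1). Regions with Olig2 in OPC alone were Brg1-free in 91.0% (90.2 to 91.7) of 6039 cases, and those with Olig2 in iOL alone in 92.9% (92.3 to 93.4) of 9822. Since the rule used these lists, the shares are a description. In it, a Brg1 call went with Olig2 at more stages, and the Brg1-free all-stage regions are those without it.

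Comparison was made with the sets most like them. The first is the 1308 all-stage regions with Brg1 at 1 stage or more, which share the Olig2 history and differ in Brg1. The second is the 9959 Brg1-free regions with Olig2 in OPC and iOL and none in mOL, which share the lack of Brg1 and differ in mOL Olig2.

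In these regions the Olig2 peaks of the 3 stages lay close together. The rule kept only places where peaks of every stage were joined, so this closeness follows largely from it. The layout is a description. In 1083 of 1109 Brg1-free all-stage regions (97.7%) the region was made of 1 peak of each stage, and the most peaks joined in a region was 5. A base common to an OPC, an iOL and an mOL peak was present in 1108 regions, with a median common length of 664 bp (quartiles 559 and 754). The exception lay at chr5:156117234-156119172, where neighbouring peaks were chained without a shared base. It was named after its values were seen. The centres of the OPC and mOL peaks were a median of 56.5 bp apart and within 200 bp in 1026 regions (92.5%). The iOL and mOL centres were a median of 62.0 bp apart and within 200 bp in 1030 (92.9%). Centres over 500 bp apart were found in 4 regions between OPC and mOL and in 6 between iOL and mOL. The plot of centre distances shows both distributions gathered around 0. The layout was alike in the all-stage regions with Brg1, which met the same Olig2 rule. There the median distance was 66.2 bp between OPC and mOL and 72.8 bp between iOL and mOL.

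**Figure D1:**
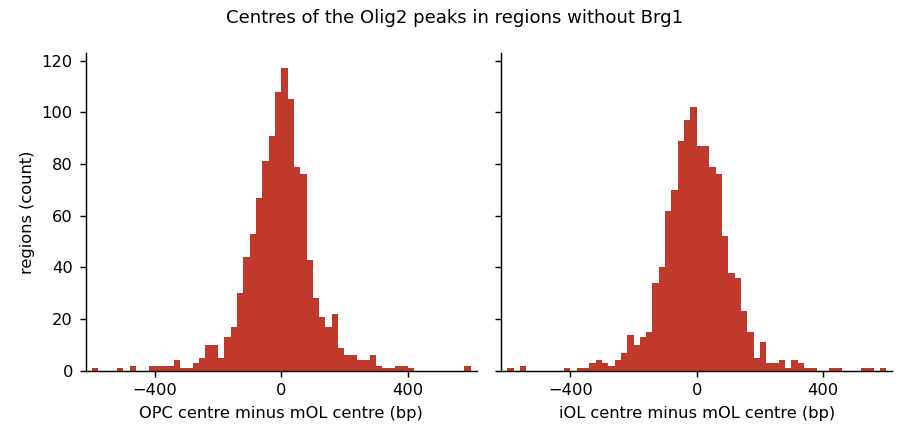
Signed distance in bp from the centre of the mOL Olig2 peak to the centre of the OPC peak (left) and of the iOL peak (right) in the 1109 Brg1-free all-stage regions, as counts of regions; values beyond 600 bp are drawn at 600 bp. Most regions lie within 200 bp of 0, which held for 1026 regions in the left panel and 1030 in the right.

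The regions had a median width of 1346 bp (quartiles 1204 and 1552), with a range of 816 to 3817 bp. This width is mostly that of the OPC peak. OPC Olig2 peaks in these regions had a median of 1335 bp, iOL peaks 818 bp and mOL peaks 736 bp, and the mOL peak lay wholly inside the OPC peak in 1092 regions (98.5%). All Olig2 peaks of each list had medians of 1312, 720 and 764 bp. The all-stage regions with Brg1 were wider, with a median of 1565 bp, and their Olig2 peaks had medians of 1528 bp in OPC, 942 bp in iOL and 796 bp in mOL. A median of 1326 bp in the Brg1-free regions of OPC and iOL only was close to that of the Brg1-free all-stage regions.

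The 3 widest Brg1-free all-stage regions were all acetylated. The widest, chr5:145483405-145487221, spanned 3817 bp and joined 5 Olig2 peaks. It met H3K27Ac peaks of 540 bp in OPC, 1475 bp in iOL and 3297 bp in mOL, and lay 17.7 kb from the nearest Brg1 peak. The next, chr13:72280461-72283728 (3268 bp, 5 Olig2 peaks), met H3K27Ac in OPC and mOL and not in iOL. The third, chr8:61160779-61163851 (3073 bp), met H3K27Ac at all stages and lay 192 kb from Brg1. Another region joining 5 Olig2 peaks, chr1:169918253-169921154, met H3K27Ac peaks of 1413, 2540 and 4029 bp in OPC, iOL and mOL. Whether these regions lie in a gene, exon, intron or UTR was not analysed here.

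Most Brg1-free all-stage regions carried none of the 3 histone marks. In OPC, 1005 of 1109 (90.6%, 88.8 to 92.3) met no H3K27Ac, H3K4me3 or H3K9me3 peak of that stage, against 79.5% of all Olig2 regions. In iOL the count was 928 (83.7%, 81.4 to 85.8; all Olig2 regions 76.4%), and in mOL 863 (77.8%, 75.3 to 80.2; all Olig2 regions 68.4%). With the marks of every stage counted, 805 (72.6%, 69.9 to 75.2) met no mark at any stage, against 62.8% of all Olig2 regions, 29.4% of the all-stage regions with Brg1 and 65.7% of the Brg1-free regions of OPC and iOL only. The share was 43.2 percentage points above the first of these sets (39.5 to 46.7) and 6.90 points above the second (4.04 to 9.61). Among all Brg1-free Olig2 regions the share was 70.9%, inside the interval of the all-stage ones, so a lack of marks at every stage was shared by Brg1-free Olig2 regions in general.

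H3K27Ac was the most frequent of the marks at these regions, and it was scarcest in OPC. An H3K27Ac peak was met by 98 regions in OPC (8.84%, 7.23 to 10.7), 179 in iOL (16.1%, 14.0 to 18.4) and 236 in mOL (21.3%, 18.9 to 23.8). All Olig2 regions met H3K27Ac in 19.7%, 23.1% and 30.6% of cases. The 3 H3K27Ac lists differ in length. When each list was cut to its 19130 widest peaks, the shares of Brg1-free all-stage regions were 8.84%, 15.2% and 13.3%, so the step from OPC to iOL was still seen with lists of equal number and the step from iOL to mOL was not.

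**Figure D2:**
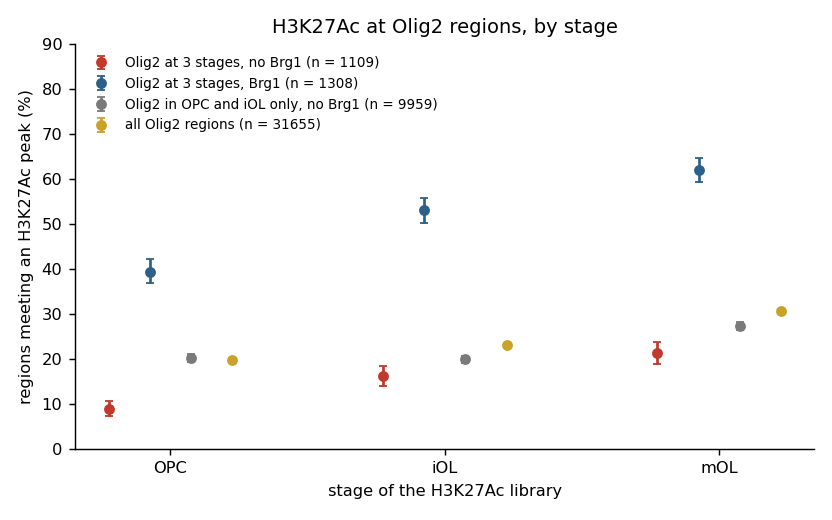
Share of regions (%) meeting an H3K27Ac peak of OPC, iOL and mOL, for the 1109 Brg1-free all-stage regions, the 1308 all-stage regions with Brg1, the 9959 Brg1-free regions of OPC and iOL only, and all 31655 Olig2 regions; points are shares and bars are exact 95% intervals over regions. The Brg1-free all-stage regions are the lowest points at every stage, at 8.84%, 16.1% and 21.3%.

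All-stage regions with Brg1 were acetylated far more often. Their shares were 39.4% in OPC, 53.1% in iOL and 62.0% in mOL. The Brg1-free all-stage regions differed from them by -30.6 percentage points in OPC (interval -33.7 to -27.4), -36.9 points for iOL (-40.3 to -33.4) and -40.7 points for mOL (-44.2 to -37.1). Weighting the comparison regions to the widths of the Brg1-free ones left differences of -19.7, -28.3 and -35.3 points.

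The Brg1-free all-stage regions were also acetylated less often than the Brg1-free regions with Olig2 in OPC and iOL only. Those regions met H3K27Ac in 20.2% of cases in OPC (19.4 to 21.0), 19.9% for iOL (19.1 to 20.7) and 27.2% for mOL (26.3 to 28.1). The all-stage regions differed from them by -11.3 points for OPC (-13.1 to -9.36), -3.75 points for iOL (-5.95 to -1.34) and -5.94 points for mOL (-8.41 to -3.29). Among regions over 2.5 kb from any H3K4me3 peak the iOL difference was -1.40 points, with an interval from -3.57 to 0.992 that includes 0. The OPC and mOL differences there were -8.68 points (-10.3 to -6.75) and -3.59 points (-6.04 to -0.936).

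Against other Brg1-free patterns of Olig2 the order differed. Brg1-free regions with Olig2 in OPC alone met H3K27Ac in 7.86% of 5493 cases in OPC (7.17 to 8.61), 5.12% for iOL (4.55 to 5.73) and 13.6% for mOL (12.7 to 14.5). All 3 values were below those of the all-stage regions, and for iOL and mOL the intervals did not overlap. Brg1-free regions with Olig2 in iOL alone met H3K27Ac in 12.4% of 9120 cases in OPC (11.7 to 13.1), 19.9% for iOL (19.1 to 20.7) and 24.3% for mOL (23.4 to 25.2). These were narrow, with a median of 647 bp. All 25969 Brg1-free Olig2 regions together, the all-stage ones included, met H3K27Ac in 14.1% (13.7 to 14.6), 16.4% (16.0 to 16.9) and 23.0% (22.4 to 23.5) of cases. The all-stage regions thus lay below Brg1-free regions in general in OPC, while in iOL and mOL the intervals overlapped.

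Width moved with acetylation in every set, and the comparison was therefore made within ranges of width. Among Brg1-free all-stage regions of 816 to 1204 bp, OPC H3K27Ac was met by 5 of 281 (1.78%, 0.580 to 4.10). It was met by 11 of 275 (4.00%, 2.01 to 7.04) of those of 1205 to 1346 bp, by 19 of 276 (6.88%, 4.20 to 10.5) of those of 1347 to 1552 bp and by 63 of 277 (22.7%, 17.9 to 28.1) of the wider ones. In the same ranges the Brg1-free regions of OPC and iOL only had 5.72%, 10.5%, 22.0% and 45.5%. The all-stage regions with Brg1 had 11.3%, 22.5%, 27.3% and 55.2%. In OPC the Brg1-free all-stage regions were thus the lowest at each width, and the 95% intervals of the Brg1-free sets did not overlap. In iOL and mOL the Brg1-free sets were alike in the narrowest range and apart in the widest. The all-stage regions and those of OPC and iOL only had 7.12% and 7.80% for iOL in the narrowest range, and 12.1% and 11.7% for mOL. In the widest range they had 31.8% (26.3 to 37.6) and 39.8% (37.9 to 41.8) for iOL, and 40.1% (34.3 to 46.1) and 51.0% (49.0 to 53.0) for mOL. From 1347 to 1552 bp the mOL shares were 18.5% (14.1 to 23.6) and 30.9% (29.0 to 32.9). The intervals of these last 3 pairs did not overlap.

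**Figure D3:**
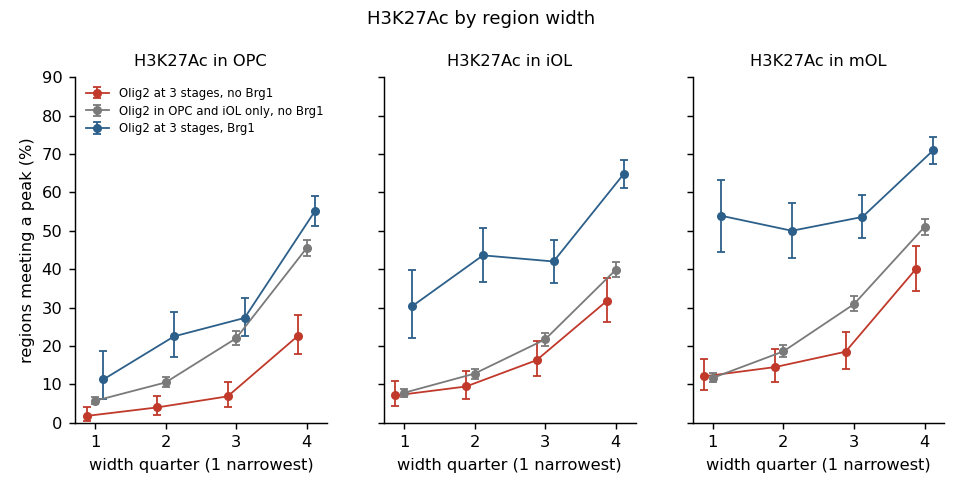
Share of regions (%) meeting an H3K27Ac peak in OPC, iOL and mOL, in 4 ranges of width set by the quartiles of the Brg1-free all-stage regions (816 to 1204, 1205 to 1346, 1347 to 1552 and 1553 to 3817 bp); points are shares, bars exact 95% intervals over regions. Shares are higher in the widest range than in the narrowest in every set, and in OPC the Brg1-free all-stage regions run from 1.78% to 22.7%, below the other sets throughout.

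Followed across stages, 817 of the Brg1-free all-stage regions (73.7%, 71.0 to 76.2) met no H3K27Ac peak at any stage, against 63.9% of all Olig2 regions. The other 292 (26.3%, 23.8 to 29.0; all Olig2 regions 36.1%) met it at some stage. H3K27Ac was called in mOL alone at 86 regions (7.75%; all Olig2 regions 8.13%), in iOL and mOL at 69 (6.22%; 5.88%) and at all stages at 63. It was called in iOL alone at 39 (3.52%; all Olig2 regions 2.45%) and in OPC and mOL at 18 (1.62%; 2.87%). The call was in OPC alone at 9 (0.812%; all Olig2 regions 2.06%) and in OPC and iOL at 8 (0.721%; 1.00%). H3K27Ac at all 3 stages was thus found at 5.68% (4.39 to 7.21) of them, where all Olig2 regions had 13.8%. The Brg1-free regions of OPC and iOL only had 12.6% and the all-stage regions with Brg1 32.6%.

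Changes of call ran mainly one way. H3K27Ac was called in mOL and not in OPC at 155 regions (14.0%, 12.0 to 16.2; all Olig2 regions 14.0%) and in OPC and not in mOL at 17 (1.53%, 0.895 to 2.44; all Olig2 regions 3.07%). Between OPC and iOL, 108 regions (9.74%; all Olig2 regions 8.32%) had the call in iOL only and 27 (2.43%; all Olig2 regions 4.93%) in OPC only. Among the Brg1-free regions of OPC and iOL only the call was in iOL and not OPC in 6.14% of cases, a difference of 3.60 points (1.92 to 5.54), and in OPC and not iOL in 6.42%, a difference of -3.98 points (-4.89 to -2.80). The mOL-not-OPC share thus equalled that of all Olig2 regions, and exceeded the 11.1% of the Brg1-free regions of OPC and iOL only by 2.87 points (0.853 to 5.12). With H3K27Ac lists of equal number, the mOL-not-OPC share of the Brg1-free all-stage regions was 7.66% and the OPC-not-mOL share 3.16%.

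**Figure D4:**
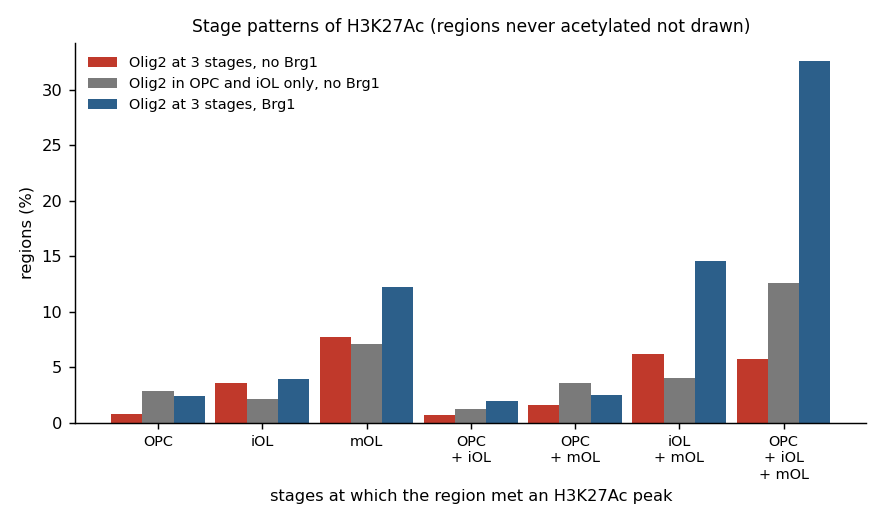
Share of regions (%) by the combination of stages at which they met an H3K27Ac peak, for Brg1-free all-stage regions, Brg1-free regions of OPC and iOL only, and all-stage regions with Brg1; regions never acetylated are not drawn and bars carry no error. Among Brg1-free all-stage regions the mOL-only bar (7.75%) is the tallest. In the other sets the bar for all stages is (12.6% and 32.6%). The mOL-only share is close to that of the Brg1-free regions of OPC and iOL only (7.07%) and of all Olig2 regions (8.13%, not drawn).

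Once called, acetylation was mostly called again. Of the 98 regions acetylated in OPC, 71 (72.4%, 62.5 to 81.0) were acetylated in iOL and 81 (82.7%, 73.7 to 89.6) in mOL. All Olig2 regions acetylated in OPC gave 75.0% and 84.4%, inside these intervals. From iOL to mOL, 132 of 179 regions acetylated in iOL (73.7%, 66.7 to 80.0) were acetylated in mOL. This was less often than in all Olig2 regions (85.1%, 84.2 to 85.9) and in the Brg1-free regions of OPC and iOL only (83.4%, 81.7 to 85.0). All Brg1-free Olig2 regions together had 81.0% (79.7 to 82.1), an interval that overlaps that of the all-stage ones. Of the 1011 not acetylated in OPC, 108 (10.7%, 8.85 to 12.8) were in iOL and 155 (15.3%, 13.2 to 17.7) in mOL. For those not acetylated in OPC, the Brg1-free regions of OPC and iOL only gave 7.69% (7.11 to 8.29) and 13.9% (13.2 to 14.7). The all-stage regions with Brg1 gave 30.6% (27.4 to 33.9) and 44.3% (40.8 to 47.9).

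Where the Brg1-free all-stage regions were acetylated, the H3K27Ac peaks were only slightly wider than the median of their lists and left part of the region uncovered. The widest H3K27Ac peak they met had a median of 760.5 bp in OPC, 826 bp in iOL and 966 bp in mOL, and all H3K27Ac peaks of these lists had medians of 745, 793 and 827 bp. The median share of the region covered was 47.6% in OPC, 55.3% in iOL and 72.0% in mOL. At all-stage regions with Brg1 the peaks were wider, 958, 1176 and 1384 bp, and covered 64.9%, 76.7% and 86.3%. At the Brg1-free regions of OPC and iOL only they were also wider, 965, 1026 and 1125 bp, and covered 64.7%, 68.2% and 75.0%. The centre of the region was under H3K27Ac in 70 of the 98 acetylated regions in OPC (71.4%), 129 of 179 in iOL (72.1%) and 176 of 236 in mOL (74.6%). At all-stage regions with Brg1 these shares were 79.8%, 85.2% and 83.6%, and at the Brg1-free regions of OPC and iOL only 82.3%, 81.7% and 81.1%. Acetylated regions meeting 2 or more H3K27Ac peaks numbered 14 of 98 in OPC, 32 of 179 in iOL and 72 of 236 in mOL. At all-stage regions with Brg1 they were 121 of 516, 165 of 694 and 221 of 811. At the Brg1-free regions of OPC and iOL only they were 351 of 2009, 329 of 1981 and 550 of 2711. Acetylation beside but not on the region meant a peak within 1000 bp. Among Brg1-free all-stage regions it was found at 11 in OPC (0.992%), 9 in iOL (0.812%) and 16 in mOL (1.44%). The shares were 1.26%, 1.46% and 1.84% in the Brg1-free regions of OPC and iOL only, and 0.459%, 0.459% and 0.612% in the all-stage regions with Brg1, so it was rare in each set.

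The regions lay far from acetylation, and those never acetylated lay far from promoter marks. Over all Brg1-free all-stage regions the median distance to H3K27Ac was 68.9 kb in OPC, 51.8 kb in iOL and 27.4 kb in mOL, where the Brg1-free regions of OPC and iOL only had 35.9, 34.4 and 17.3 kb. The 817 never acetylated regions had a median width of 1310 bp and lay a median of 92.9 kb from the nearest H3K4me3 peak and 24.1 kb from the next Olig2 region. The 292 regions acetylated at some stage had a median width of 1500 bp, and lay 53.0 kb from H3K4me3 and 14.4 kb from the next Olig2 region. For the 63 acetylated at all stages the median distance to H3K4me3 was 21.4 kb. The iOL Olig2 peaks of regions acetylated at some stage had a median of 952 bp and those of never acetylated regions 783 bp.

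Examples show how wide a region without acetylation could be. The widest, chr4:30772104-30774930, spanned 2827 bp and joined 4 Olig2 peaks. It lay 12.4 kb from H3K4me3 and 242 kb from H3K27Ac of OPC. The region chr18:4613516-4616321 (2806 bp, 5 Olig2 peaks) lay 361 kb from H3K27Ac of OPC, and chr5:158930011-158932814 (2804 bp) lay 2.39 kb from it. The widest region acetylated in mOL alone was chr7:33560179-33562578 (2400 bp), which met an H3K27Ac peak of 588 bp. The widest acetylated in OPC alone was chr3:105252756-105255024 (2269 bp), with a peak of 687 bp and an H3K4me3 peak 1.43 kb away.

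H3K4me3 was rare at Brg1-free all-stage regions. It was met by 6 regions in OPC (0.541%, 0.199 to 1.17; all Olig2 regions 3.13%), 5 in iOL (0.451%, 0.147 to 1.05; all Olig2 regions 2.81%) and 17 in mOL (1.53%, 0.895 to 2.44; all Olig2 regions 5.37%). The Brg1-free regions of OPC and iOL only had 2.92%, 2.51% and 5.02%, and the all-stage regions differed by -2.38 points (-2.84 to -1.67), -2.06 points (-2.48 to -1.39) and -3.49 points (-4.21 to -2.49). All-stage regions with Brg1 had 0.994%, 0.917% and 3.90%. The difference from them in mOL was -2.37 points (-3.69 to -1.07), but -1.03 points (-2.44 to 0.227) once weighted by width. The nearest H3K4me3 peak of any stage was a median of 76.3 kb away and within 2.5 kb of 47 regions (4.24%, 3.13 to 5.60). For the Brg1-free regions of OPC and iOL only the median was 61.9 kb and the share within 2.5 kb 8.12% (7.59 to 8.68). The all-stage regions with Brg1 had 82.5 kb and 5.66% (4.47 to 7.05). They were thus about as far from H3K4me3 as the Brg1-free all-stage regions.

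H3K4me3 of some stage was met by 17 regions (1.53%; all Olig2 regions 5.45%), and all 17 had it in mOL. It was present at all stages at 5, in OPC and mOL at 1 and in mOL alone at 11. Among all Olig2 regions, 1701 of the 1724 with H3K4me3 at some stage had it in mOL. A call in mOL was thus shared by Olig2 regions with H3K4me3 in general. The H3K4me3 list was also longest for mOL, at 17530 peaks, while OPC had 11758 and iOL 10467. H3K27Ac of some stage was present at 16 of the 17, and at all stages at 8. The widest with H3K4me3 throughout was chr10:31440176-31442468 (2293 bp), which met an mOL H3K4me3 peak of 3799 bp and H3K27Ac peaks of 3587, 3368 and 4370 bp in OPC, iOL and mOL. The region without acetylation was chr9:54456852-54458314, also named after its values were seen.

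H3K9me3 was rare, and on few counts somewhat more frequent than at all Olig2 regions. It was met by 6 regions in OPC (0.541%, 0.199 to 1.17; all Olig2 regions 0.344%), 3 in iOL (0.271%, 0.0558 to 0.789; all Olig2 regions 0.0821%) and 10 in mOL (0.902%, 0.433 to 1.65; all Olig2 regions 0.559%). Together these were 17 regions (1.53%, 0.895 to 2.44), against 0.828% of all Olig2 regions and 1.53% of the all-stage regions with Brg1. The other 1092 had H3K9me3 at no stage. Since the mark was met by 0.828% of all Olig2 regions, its absence was shared by Olig2 regions in general. Of the 17, 9 had the mark in mOL alone, 5 in OPC alone, 2 in iOL alone and 1 at all stages. That last region, chr10:105172370-105173980, was likewise named after the fact. The order of the stages follows the lengths of the H3K9me3 lists, which held 7103 peaks in mOL, 3149 in OPC and 827 in iOL. H3K27Ac was called at some stage at 6 of the 17, against 26.3% of all Brg1-free all-stage regions and 36.1% of all Olig2 regions. H3K4me3 was called at none of the 17. Since 1.53% of all Brg1-free all-stage regions met H3K4me3, 17 regions are too few to read anything from this. Over all stages the difference from the Brg1-free regions of OPC and iOL only was 0.880 points (0.280 to 1.80). By stage, the differences from the Brg1-free regions of OPC and iOL only were 0.290 points for OPC (-0.0262 to 0.929), 0.210 points for iOL (0.0181 to 0.733) and 0.450 points for mOL (0.0114 to 1.21). Under an overlap of 50% of the shorter interval no region kept iOL H3K9me3 and the mOL interval included 0.

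RNAPII was nearly absent. No region met 1 of the 332 RNAPII peaks of OPC, a count of 0 of 1109 with an exact interval up to 0.332% (all Olig2 regions 0.0885%). In iOL, 7 regions met 1 of the 1425 RNAPII peaks (0.631%, 0.254 to 1.30), against 0.720% of all Olig2 regions, 0.613% of the Brg1-free regions of OPC and iOL only and 1.22% of the all-stage regions with Brg1. All 7 met iOL H3K27Ac, 6 of them met H3K27Ac at all stages and 4 met H3K4me3 at some stage. Regions with RNAPII in other sets were not examined in this way, so no trait particular to these 7 can be read from it. The widest, chr17:23389567-23392469 (2903 bp), lay 239.8 kb from any H3K4me3 peak and met an RNAPII peak of 1334 bp. The next, chr10:31440176-31442468, is the H3K4me3 region described above, with an RNAPII peak of 2391 bp. The region chr6:138021648-138023669 met H3K4me3 in OPC and mOL, chr8:108156610-108158458 met it in mOL, and chr7:11174625-11176307 lay 2.20 kb from H3K4me3.

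The nearest Brg1 peak was usually far away. The median distance to Brg1 of any stage was 108 kb, with quartiles of 37.7 and 247 kb. Brg1 lay within 1 kb of 9 regions (0.812%, 0.372 to 1.53), within 10 kb of 79 (7.12%, 5.68 to 8.80), within 50 kb of 340 (30.7%, 28.0 to 33.5) and within 100 kb of 529 (47.7%, 44.7 to 50.7). It was over 1 Mb away from 21 regions (1.89%). By stage, the median was 2257 kb to the 452 OPC Brg1 peaks, 163 kb to the iOL peaks and 207 kb to the mOL peaks, an order that follows the lengths of the lists. Brg1-free regions of OPC and iOL only lay a median of 94.8 kb from Brg1, with 9.99% (9.41 to 10.6) within 10 kb and 34.4% (33.4 to 35.3) within 50 kb. The all-stage regions were thus no closer to Brg1 than other Brg1-free regions, as the plot of distances shows. The rule used the Brg1 lists, and these distances are a description.

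**Figure D5:**
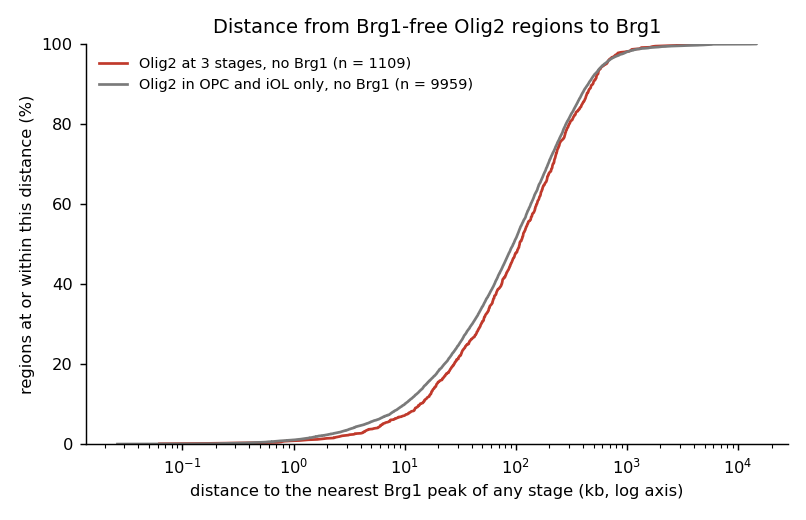
Cumulative share of regions (%) against the distance to the nearest Brg1 peak of any stage (kb, log axis), for the 1109 Brg1-free all-stage regions and the 9959 Brg1-free regions of OPC and iOL only. The curves run close together, with medians of 108 kb and 94.8 kb, and the all-stage curve lies slightly to the right over most of its length.

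At the edge of the rule, the Brg1-free all-stage regions nearest to a Brg1 peak were 62, 169 and 289 bp from it. They were chr1:227884814-227886005 and chr14:87414235-87415557, both acetylated in mOL alone, and between them in distance chr5:123179174-123180028, acetylated in iOL and mOL. On the other side, the smallest overlaps of an excluded region with Brg1 were 36, 254 and 329 bp, and the median overlap was 1054 bp. The border therefore held few regions. The 3 regions farthest from Brg1 were all on the X chromosome. The region chrX:63080299-63081288 lay 4.56 Mb away and met no mark. The region chrX:15844168-15845244, 4.04 Mb away, was acetylated in iOL, and chrX:128491962-128493870, 3.06 Mb away, in mOL.

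The Brg1 sites nearest to these regions were like Brg1 sites in general. The nearest Brg1 region had Brg1 in iOL alone in 43.2% of cases, in mOL alone in 29.8% and in iOL and mOL in 21.9%. Among all 7633 Brg1 regions these shares were 41.2%, 28.6% and 24.4%. It held Olig2 at all 3 stages in 18.2% of cases and at no stage in 23.4%, against 17.1% and 25.1% of all Brg1 regions.

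The share of Brg1-free all-stage regions with acetylation was higher within 50 kb of Brg1 than farther away. H3K27Ac of some stage was found at 28 of the 79 regions within 10 kb of Brg1 (35.4%, 25.0 to 47.0) and at 88 of 261 at 10 to 50 kb (33.7%, 28.0 to 39.8). The share was 23.3% (17.5 to 30.0) of 189 regions at 50 to 100 kb, 22.4% (17.9 to 27.5) of 308 at 100 to 250 kb and 23.2% (18.3 to 28.6) of 272 beyond. The interval at 10 to 50 kb lay above that at 100 to 250 kb, and the other intervals overlapped. Median widths in these ranges stayed between 1320 and 1368 bp. The Brg1-free regions of OPC and iOL only had 49.1% (46.0 to 52.3) within 10 kb, 38.3% (36.4 to 40.3) at 10 to 50 kb and 25.8% (24.1 to 27.7) beyond 250 kb. With only regions over 50 kb from Brg1 in both sets, OPC acetylation of the all-stage regions was 7.28%, and the difference was -11.1 points (-13.0 to -8.82), close to the -11.3 points over all distances.

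Stretches of acetylation were made by bridging gaps of up to 12500 bp between H3K27Ac peaks of a stage. Brg1 of the same stage was held by 307 of all 11194 stretches in OPC, 2452 of 12042 in iOL and 2922 of 17186 in mOL. The rule left out regions that themselves meet Brg1, so the counts below are a description. For OPC, 99 regions lay in a stretch, and none of these stretches held an OPC Brg1 peak, a count of 0 of 1109 with an exact interval up to 0.332%. In iOL 184 lay in a stretch, 18 of them in 1 with iOL Brg1 (1.62% of all, 0.965 to 2.55). In mOL 249 did, 30 of them with mOL Brg1 (2.71%, 1.83 to 3.84). By comparison, the Brg1-free regions of OPC and iOL only shared a stretch with Brg1 in 0.361%, 3.01% and 4.55% of cases. These shares are of all regions of a set, most of which lay in no stretch. Of the OPC and iOL only regions that lay in a stretch, 36 of 2092, 300 of 2073 and 453 of 2852 shared it with Brg1.

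Most Brg1-free all-stage regions had no other such region within 50 kb. The gap to the next region of the same kind was not computed for other sets. Whether these regions are more or less clustered than others was therefore not tested. The median gap to the next such region was 644 kb (quartiles 270.1 and 1502 kb), and 1050 of the 1109 had none within 50 kb. The other 59 (5.32%) formed 28 pairs and 1 group of 3. That group, chr19:21748239-21814054, spanned 65.8 kb, held 1 Brg1 region inside it and met no H3K27Ac at any stage. The pairs at chr1:26741138-26791055 and chr1:163509796-163547738 were never acetylated either and held no Brg1 between them. Of the 28 pairs, neither region was acetylated in 15, 1 in 10 and both in 3. Acetylation of some stage was found at 27.1% (16.4 to 40.3) of the 59 grouped regions and 26.3% (23.6 to 29.1) of the others, a difference within the intervals.

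Other Olig2 regions were near all the same. The next Olig2 region of any kind was a median of 20.8 kb away, and within 50 kb of 831 regions (74.9%). All Olig2 regions had a median of 16.5 kb and 79.5% within 50 kb, so the Brg1-free all-stage regions stood somewhat farther from their neighbours. All-stage regions with Brg1 had 17.1 kb and 79.2%.

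The share of regions on each chromosome mostly lay near that of all Olig2 regions, with chromosome 16 lower, at 22 regions (1.98%, against 3.25% of all Olig2 regions). Chromosome 1 held 106 (9.56%, against 10.2% of all Olig2 regions), chromosome 2 held 100 (9.02% against 8.56%) and the X chromosome 20 (1.80% against 2.01%). None lay on unplaced sequence. The Brg1-free share of all-stage regions ran from 33.3% (22.2 to 46.0) of 66 on chromosome 16 to 64.5% (45.4 to 80.8) of 31 on the X chromosome, and the interval of each of these chromosomes includes the genome-wide 45.9%.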

How the data were processed

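Per the submitters' processing notes, MACS 1.4.0 and build rn4 were used. The sources used here give no aligner, threshold, control library or filter. Each deposited file has 3 columns, chromosome, start and end of the authors' peaks, with no score, height or p-value, so positions and widths in bp were the values analysed. Positions are printed 1-based.

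Overlap meant at least 1 bp. Regions were classed by Olig2 stages and Brg1, then set against marks and RNAPII, which the rule did not use. Comparison sets were weighted to the regions' widths in 10 bins as an alternative. Distances run edge to edge. The regions, sets and lists were chosen with earlier results of these data known. Named regions are extremes of width, number of joined peaks, distance to Brg1, clustering and mark pattern, leaving out unplaced sequence; exceptions are named as such. No rn4 genome or annotation was used here, so genes and sequences are not given. Python 3.11.15, numpy 2.4.6, pandas 2.3.3, scipy 1.17.1 and matplotlib 3.10.9 were used. Merging, overlap, distance and the class rule were tested on simulated regions with known answers. Overlaps with all 17 lists and 31655 distances were compared with bedtools 2.31.1, and 0 differed.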

Additional observations from a re-analysis of the deposited data

How the results depend on the processing

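Of 426 alternative values, 389 were classed as the same. For a difference this meant an interval that still excluded 0 on the same side, or one that still included 0. Some differences of the latter kind changed sign, such as H3K4me3 in OPC against all-stage regions with Brg1, from -0.453 to 0.0575 points when weighted by width. For a share or a median distance it meant a value inside the reported interval, and for a count a value within a set factor. The number of regions fell to 271 when only the wider peaks of each Olig2 list, above its median, were used, 30.4% of the 891 all-stage regions then found. With an overlap of 50% of the shorter interval the H3K9me3 share was 0 in iOL and 0.180% in mOL. Its difference from the Brg1-free regions of OPC and iOL only was then 0.200 points in OPC, now above 0, -0.0201 in iOL, reversed, and 0.100 in mOL, no longer apart from 0. The RNAPII difference from all-stage regions with Brg1 became -0.863 points. With peaks up to 1000 bp away counted, H3K4me3 shares were 1.35%, 1.26% and 2.61% in OPC, iOL and mOL, H3K9me3 in mOL 2.34%, no mark in mOL 74.8% and no mark at any stage 69.2%. In the middle 200 bp of each region, H3K27Ac was met in 13.6% (iOL) and 18.8% (mOL), and in iOL but not OPC in 7.94%. Weighting by width gave differences from all-stage regions with Brg1 of -1.03 points for H3K4me3 in mOL and -1.53 for H3K27Ac in OPC but not iOL, both with intervals that include 0. H3K27Ac lists of equal number gave 13.3% in mOL, 7.66% in mOL but not OPC and 3.16% in OPC but not mOL.

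Cuts to wider regions, to regions over 50 kb from Brg1 and to regions over 2.5 kb from H3K4me3 were chosen after seeing the data. In regions wider than the median, H3K27Ac shares were 14.8%, 24.1% and 29.3% by stage, 16.5% in mOL but not OPC, 13.2% in iOL but not OPC and 3.98% in OPC but not iOL. The differences of the latter pair from all-stage regions with Brg1 were -3.70 and -1.59 points, with intervals that include 0. Over 50 kb from Brg1 the shares were 13.7% in iOL and 18.2% in mOL. Over 2.5 kb from H3K4me3 the iOL difference from the Brg1-free regions of OPC and iOL only was -1.40 points. The median distance to Brg1 was 2257, 163 and 207 kb for Brg1 of OPC, iOL and mOL alone. Regions with another within reach, also a planned count, numbered 12 with a gap of up to 12500 bp and 109 with 100 kb. The cause of these shifts was not tested. No paired analysis was possible because each target and stage had 1 library and no test compares replicates. Peak lists of unknown depth limit every share, since a weak site below the call counts as absent.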
